A study of Bos taurus with 8 samples.

Results

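The collagens, the laminin chains and a set of other matrix genes were followed in bovine granulosa cells, the cells that line the ovarian follicle. Members were all array probes whose gene symbol was that of a collagen chain or a laminin chain, or was FN1, SPARC, NID1, NID2, HSPG2, DCN, LUM, BGN, FBN1, POSTN or LOX. This gave 70 probes for 59 gene symbols among the 43794 probes of the array. One symbol, COL4A3BP, met the rule by its letters alone: its current name is CERT1, a ceramide transfer protein, and it encodes no collagen. A probe was analysed further when its intensity stood above the negative control spots in 3 or 4 of the heifers for any of the ages, which 46 member probes for 43 symbols did, among 22675 probes in all.

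The samples came from 4 Holstein heifers, each sampled at 8, 11 and 14 months of age. At every age the heifers had received progesterone from an intravaginal device and then 6 injections of 30 mg FSH, and cells were aspirated through the vaginal wall, so that no group was free of stimulation. Each heifer had 1 array with RNA of 8 against 14 months and 1 array with RNA of 11 against 14 months, 8 arrays in all. RNA was taken from pools and was amplified before labelling. The younger age carried the Cy5 dye in heifers 1 and 2 and the Cy3 dye in heifers 3 and 4. Per the labels every sample is of granulosa cells, with the sample type given as in vitro, while the design text mentions 10 cows and blastocysts. This conflict was not settled, and it bears on every value below.

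A basement membrane is a thin sheet of matrix under a layer of cells. Its main parts are a laminin network, built of trimers of an alpha, a beta and a gamma chain, and a network of type IV collagen, with nidogen and perlecan linking them. In the ovarian follicle such a sheet, the follicular basal lamina, separates the granulosa cells from the theca, and bovine granulosa cells also lay down patches of similar matrix between themselves, called focimatrix. Fibrillar collagens, decorin, lumican and periostin are made mostly by stromal cells in many tissues.

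All 15 genes of the granulosa marker list had a probe above background, and the summed intensity of the list ranged from 142000 to 206000 at 8 months, from 87200 to 229000 at 11 months and from 192000 to 213000 at 14 months. Markers of other cell types were measured too. Summed epithelial markers, 9 of 12 genes kept and CDH1 never above background, ranged from 97000 to 191000 at 8 months. They ranged from 46800 to 164000 at 11 months and from 40400 to 89700 at 14 months. Squamous epithelium markers, 14 of 18 genes kept, ranged from 29600 to 169000 at 8 months, from 8560 to 23100 at 11 months and from 14200 to 18500 at 14 months. Motile cilia markers, 12 of 18 genes kept, ranged from 2860 to 117000 at 8 months, from 2540 to 85100 at 11 months and from 2660 to 4380 at 14 months. At 8 months they were high in heifers 1 and 2 only, and at 11 months in heifers 1 (18300) and 4 (85100). The arrays of these 4 samples are those of high cilia signal left out in a fit below. Stromal and muscle markers, 6 of 8 genes kept and PDGFRB never above background, ranged from 10800 to 12600 at 8 months. They ranged from 9920 to 21700 at 11 months and from 14800 to 21100 at 14 months. Theca markers, 3 of 6 genes kept and GLI1 never above background, ranged from 2070 to 3680 at 8 months. Their range was 1680 to 2800 at 11 months and 1970 to 2630 at 14 months. In the fit described below, 1 of 4 kept theca probes was called higher at 8 months (limma adjusted p 0.0384), against 3.26% of all kept probes. Leukocyte markers, 12 of 15 genes kept, ranged from 9450 to 18600 at 8 months and from 10600 to 17700 at 11 months. At 14 months they were at 55200 in heifer 2 and at 16900, 21600 and 23700 in heifers 1, 3 and 4. Endothelial markers, 5 of 9 genes kept, ranged from 864 to 3230, from 886 to 3150 and from 870 to 1300 at 8, 11 and 14 months. PECAM1 and TIE1 were never above background. In these bulk samples a change in the share of a cell type and a change of RNA per cell cannot be told apart.

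Between 8 and 14 months the matrix genes went both ways, with a median difference near 0. Differences below are log2 ratios of the younger age over 14 months in the same heifer, and adjusted p-values come from limma with Benjamini-Hochberg adjustment over the 22675 probes, with a threshold of 0.05. At this threshold 1 of 46 member probes passed, that of LAMA5, against 3.87% of all kept probes, and it was higher at 8 months, as were 3.26% of all kept probes. An unadjusted p under 0.05 was reached by 10 member probes, which is 21.7%, against 24.8% of all kept probes. The fitted differences ran from -1.27 for HSPG2 to 1.26 for LAMA5, 26 above 0 and 20 below it, with a median of 0.06, beside 0.00 for all kept probes. With signs left out the median was 0.33, beside 0.28 for all kept probes. The same direction in all 4 heifers was seen for 10 member probes, against 31.6% of all probes with a value in each heifer. Of these, 6 members were higher, against 15.7% of all probes, and 4 were lower, against 16%.

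**Figure D1:**
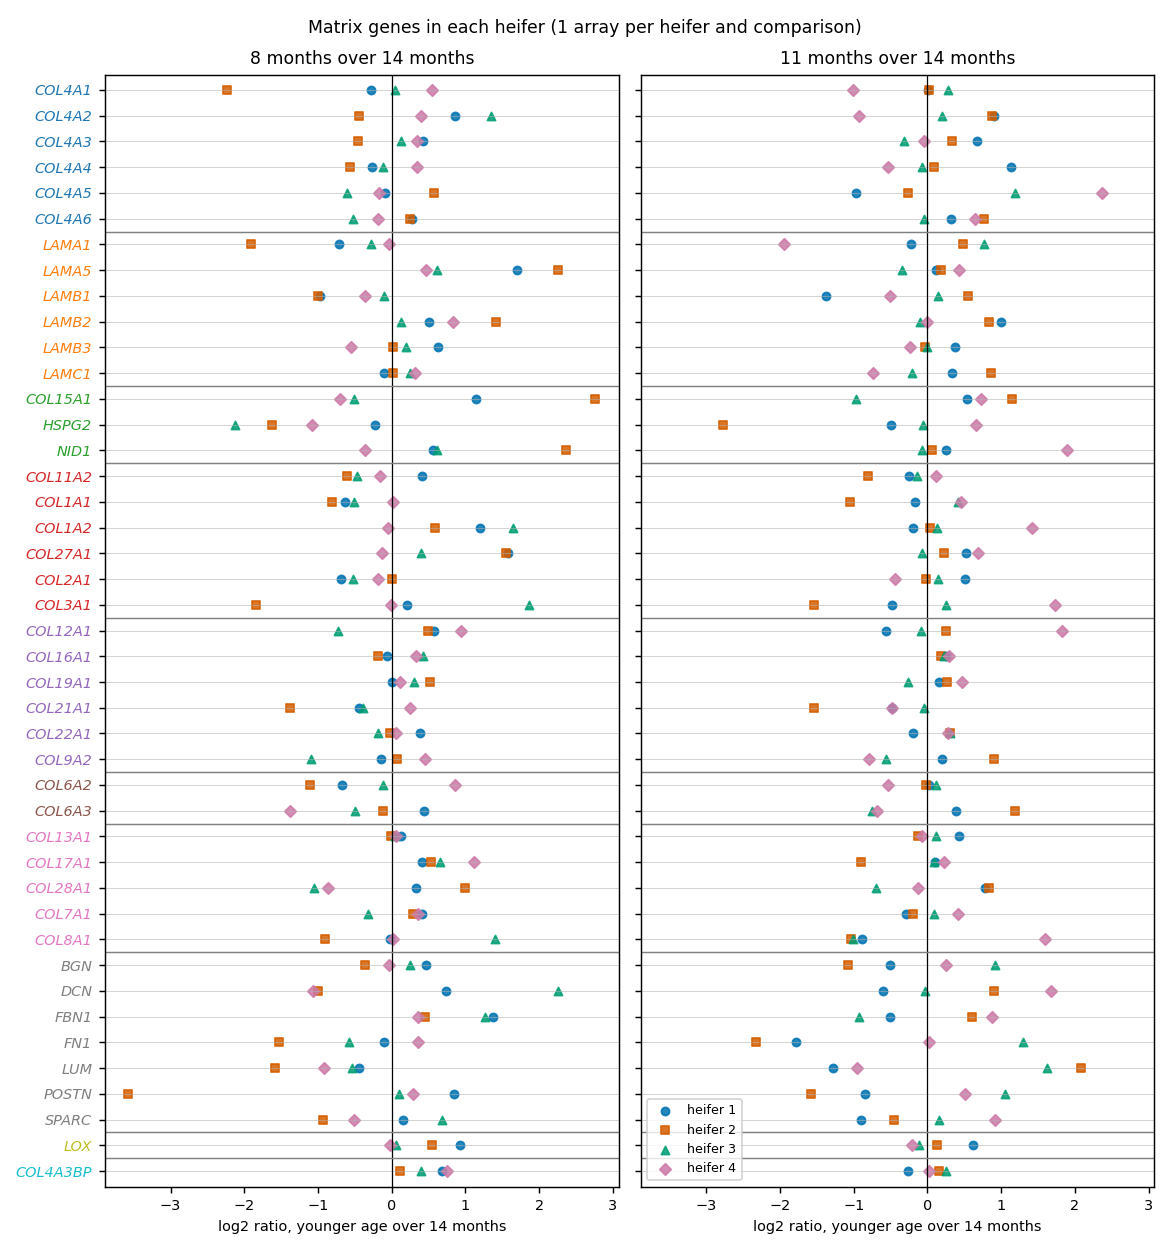
Each row is a member gene (brightest kept probe, names coloured and ruled off by role), and the horizontal axis gives its log2 ratio of the younger age over 14 months, at 8 months on the left and 11 months on the right, with a marker for each of the 4 heifers and a line at 0. Most rows straddle the line: at 8 months LAMA5, LAMB2, FBN1 and COL17A1 are among those wholly to its right and HSPG2 and LUM among those wholly to its left, and the marker farthest left is POSTN in heifer 2 at -3.57.

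At 11 months none of the 46 members passed the threshold, and neither did any other probe on the array (0%). An unadjusted p under 0.05 was reached in this limma fit by 2 members, COL4A6 and COL21A1, and by 7.51% of all kept probes. COL4A6 was kept through 11 months alone, the age at which it was high, so its p is no support for a difference. The fitted differences ran from -0.70 for FN1 to 0.58 for COL4A5 with a median of 0.04, beside -0.01 for all kept probes. With signs left out the median was 0.167, beside 0.195 for all kept probes. Only COL16A1 (higher) and COL21A1 (lower) kept a direction in all 4 heifers, while 6.35% of all probes were higher in all of them and 6.7% lower, 13% in all.

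**Figure D2:**
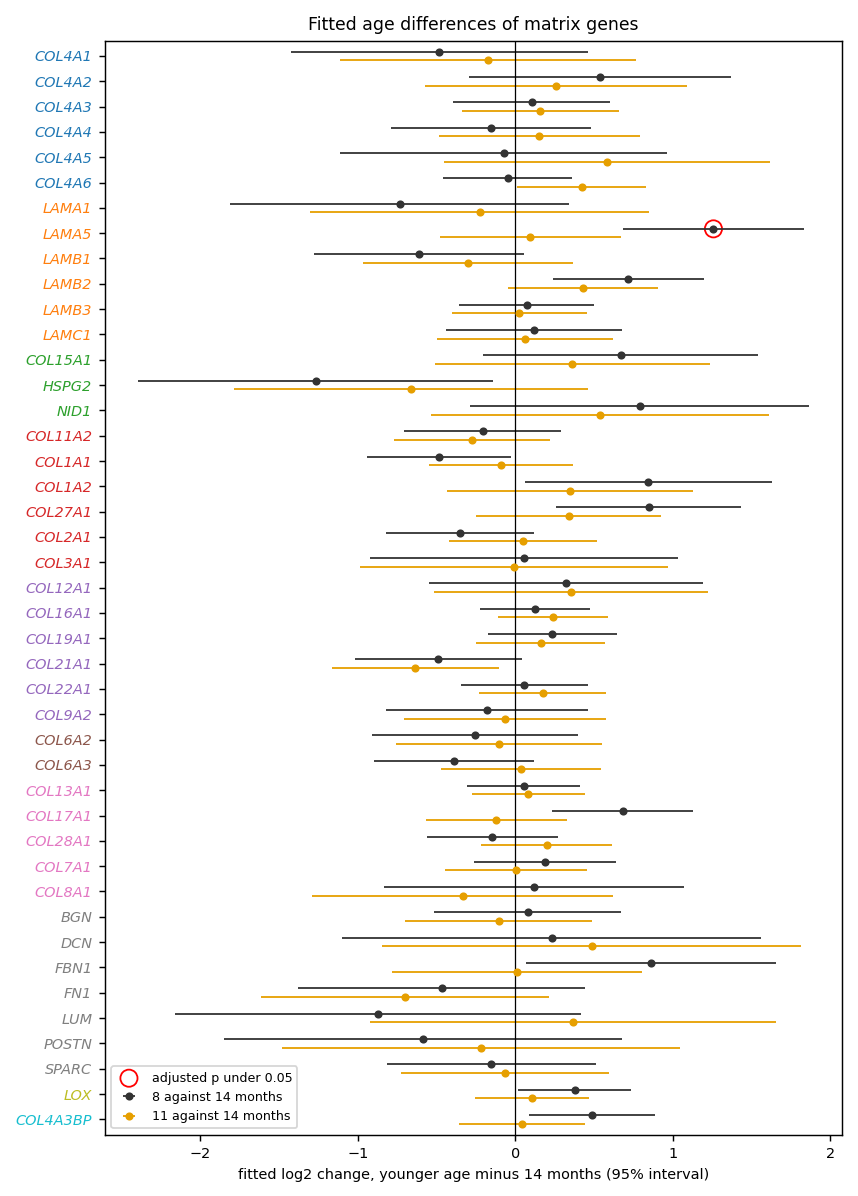
The fitted log2 change against 14 months with its 95% interval is shown for the brightest kept probe of each member gene, at 8 months in black and at 11 months in orange. Gene names are coloured by role, and a red ring marks an adjusted p under 0.05. The ring is at LAMA5 at 8 months alone, at 1.26, and the interval of HSPG2 at 8 months, from -2.39 to -0.14, is on the other side of 0.

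Among the laminin chains, LAMA5 was higher at 8 months than at 14 months in every heifer. LAMA5 encodes the alpha chain of laminins found under many epithelia. Its log2 ratios at 8 months (probe EMBV3_26649) were 1.69, 2.26, 0.62 and 0.46 in heifers 1 to 4. Its level, a log2 normalised intensity, was 9.31, 9.64, 8.51 and 7.80 at 8 months and 7.83, 7.38, 7.85 and 7.40 at 14 months. The levels thus overlapped only through heifer 4, whose 8-month value lay just under the 14-month values of heifers 1 and 3. LAMA5 was 2.39-fold higher at 8 months in the fit, a log2 change of 1.26 (SE 0.25, 95% interval 0.68 to 1.83, n = 4 heifers, limma adjusted p 0.036). At 11 months its ratios were 0.12, 0.18, -0.34 and 0.43, no larger than their own spread, and the fitted difference was 0.10 (SE 0.25, limma adjusted p 0.927). The levels at 11 months were 8.15, 7.57, 7.46 and 7.89, with heifers 1 and 4 above every 14-month level and the others within their range. The probe stood above background in 4 heifers at 8 months, 2 at 11 months and 3 at 14 months (5 of 8 arrays). Set against 11 months, the 8-month value was higher by 1.16 (limma p 0.00671, adjusted p 0.753).

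The LAMA5 call was not stable: it held in 8 of the 13 alternative settings in which the probe was tested, with adjusted p from 0.0113 to 0.223 and log2 changes from 0.81 to 1.38. It was lost with no dye term (limma adjusted p 0.0564), without heifer 1 (limma adjusted p 0.0509), without heifer 3 (limma adjusted p 0.223) and without heifer 4 (limma adjusted p 0.101). Without heifer 3 and without heifer 4 the fits called only 0% and 0.159% of all kept probes. LAMA5 was at 1.37 in both, so these losses are not particular to it. Marker lists of other cell types were measured on the same arrays. The median 8-month ratio of the epithelial marker list was 2.29, 1.86, 1.50 and 0.79 in heifers 1 to 4, that of the squamous list 3.43, 0.62, 1.67 and 3.18, and that of the motile cilia list 2.89, 3.75, -0.03 and 0.07. The squamous median was lowest in heifer 2, where LAMA5 was highest. The 2 heifers with the highest LAMA5 ratios were those with the high cilia signal, and those in which the 8-month RNA carried Cy5. The part of these cell types in the LAMA5 difference was not tested. Without the 4 arrays of high cilia signal the fitted change of LAMA5 was 0.81 (limma adjusted p 0.0925), in a fit with 1 residual degree of freedom.

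LAMB2, a beta chain that pairs with LAMA5 in some laminins, was the other laminin chain above 14 months in all heifers, but it did not pass the threshold. Its 8-month ratios were 0.50, 1.41, 0.13 and 0.83, with a fitted difference of 0.72 (SE 0.21, limma adjusted p 0.0889). Its levels were 10.89, 10.72, 10.55 and 10.99 at 8 months and 10.45, 9.38, 10.23 and 10.02 at 14 months. These levels did not overlap. LAMB2 and COL4A3BP were the 2 members of 46 with every 8-month level above every 14-month level, against 7.53% of all probes. At 11 months its ratios were 0.99, 0.84, -0.11 and -0.01, high in the first pair of heifers alone, and the fitted difference was 0.43 (limma adjusted p 0.661).

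The chains of the classical laminin trimer, LAMA1, LAMB1 and LAMC1, were below or near their 14-month levels at 8 months, and none passed the threshold. LAMA1 was at -0.71, -1.91, -0.28 and -0.04 in heifers 1 to 4, with a fitted difference of -0.74 (SE 0.47, limma adjusted p 0.371). LAMB1 was at -0.97, -1.0, -0.10 and -0.36, with a fitted difference of -0.61 (SE 0.29, limma adjusted p 0.234). Both were below 0 in every heifer, with heifer 2 the lowest. LAMC1, the gamma chain of most laminins, had 3 kept probes, and they did not point one way: the brightest gave a fitted difference of 0.12, the others 0.14 and -0.35. LAMB3, part of the epithelial laminin of skin, was at 0.07 (SE 0.19, limma adjusted p 0.852).

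At 11 months LAMA1 was low in another heifer. Its ratios were -0.22, 0.49, 0.77 and -1.95, and its level in heifer 4 was 12.28 against 14.14 at 14 months. The arrays with the lowest LAMA1, heifer 2 at 8 months and heifer 4 at 11 months, were also those with the lowest median of the granulosa marker list, -1.24 and -1.19, while that median lay between -0.26 and 0.13 on the other arrays. The part of granulosa cell content in these values was not tested. LAMB1 at 11 months was at -1.38, 0.55, 0.14 and -0.51, and its fitted difference was -0.30 (limma adjusted p 0.768).

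Type IV collagen showed the same heifers apart. COL4A1 and COL4A2 encode the chains of the most widespread type IV network and lie next to each other in the genome with 0 genes between them. Neither passed the threshold at 8 months, and their ratios had the same sign in heifers 2, 3 and 4 and opposite signs in heifer 1. COL4A1 was at -0.29, -2.24, 0.05 and 0.55, a fitted difference of -0.48 (SE 0.41, limma adjusted p 0.51). COL4A2 was at 0.86, -0.45, 1.34 and 0.40, a fitted difference of 0.54 (SE 0.37, limma adjusted p 0.40). In each heifer but the last COL4A2 stood above COL4A1 by over 1 log2 unit, and in heifer 4 it stood slightly below it. This difference between the genes was not tested. The level of COL4A1 was 11.83, 9.66, 12.20 and 11.98 at 8 months and 12.01, 11.91, 12.07 and 11.28 at 14 months, so heifer 2 alone was low. At 11 months COL4A1 was at 0.01, 0.02, 0.29 and -1.01, and COL4A2 at 0.90, 0.87, 0.20 and -0.93. Heifer 4 was the low one for both.

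The other type IV chains were close to their 14-month levels at 8 months. COL4A3 and COL4A4, which are also genome neighbours and belong to the network known from the kidney filter, had fitted differences of 0.10 and -0.16, and those of COL4A5 and COL4A6 were -0.07 and -0.05. COL4A5 spread widely at 11 months: -0.97, -0.26, 1.18 and 2.37 in heifers 1 to 4, a fitted difference of 0.58 (SE 0.46, limma adjusted p 0.715). Its level in heifer 4 was 11.00 at 11 months against 9.04 at 14 months, while in heifer 1 it was 9.10 against 9.94. COL4A6 was at 0.32, 0.77, -0.05 and 0.64 at 11 months, with a fitted difference of 0.42 (SE 0.18, limma p 0.0462, adjusted p 0.661). This probe was above background in 4 heifers at 11 months but in 1 at 8 months and 2 at 14 months. None of the 6 kept type IV probes passed the threshold at any age.

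**Figure D3:**
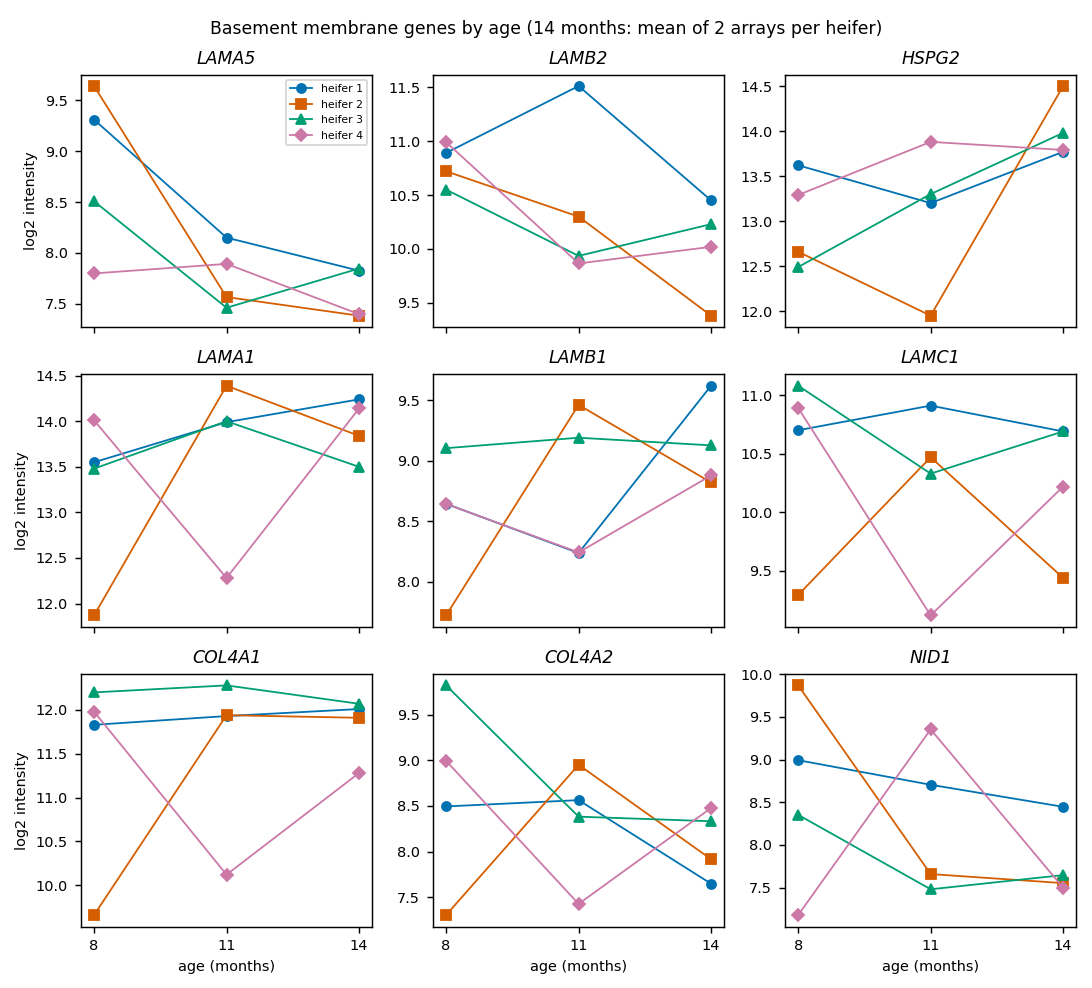
Log2 normalised intensity (vertical axis, a scale of its own in each panel) of 9 basement membrane genes at 8, 11 and 14 months (horizontal axis), with a marker and line for each heifer and the mean of 2 arrays per heifer at 14 months. LAMA5 is highest at 8 months in heifers 1 and 2 (9.31 and 9.64), HSPG2 is lower at 8 months than at 14 months in all 4 heifers, and the low points of LAMA1 and COL4A1 are heifer 2 at 8 months and heifer 4 at 11 months.

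The linkers of the basement membrane were among the most variable members. HSPG2 encodes perlecan, the large heparan sulfate proteoglycan of basement membranes. At 8 months HSPG2 was at -0.23, -1.62, -2.12 and -1.09 in heifers 1 to 4. Its levels were 13.62, 12.66, 12.49 and 13.29 at 8 months and 13.77, 14.50, 13.98 and 13.79 at 14 months, the only member with every 8-month level below every 14-month level, as 4.88% of all probes were. The fitted difference was -1.27 (SE 0.50, 95% interval -2.39 to -0.14, limma adjusted p 0.16), so it did not pass. Its value rested on single heifers: it ran from -1.87 without heifer 1 to -0.80 without heifer 3 (limma adjusted p 0.0593 and 0.549), and it was -3.00 without the 4 arrays of high cilia signal (limma adjusted p 0.000118, 1 residual degree of freedom). The repeat measurement of the 14-month RNA was poor for this probe: heifer 3 read 14.61 on one array and 13.36 on the other, and heifer 4 read 14.38 and 13.21. At 11 months HSPG2 was at -0.49, -2.77, -0.06 and 0.66, a fitted difference of -0.66 (limma adjusted p 0.703). Heifer 2 was far below its 14-month level at both ages, but both ratios share its 14-month RNA. That RNA had the highest HSPG2 level at 14 months, 14.50. The leukocyte list had medians of -1.74 and -1.64 on the 8- and 11-month arrays of heifer 2, and its part in these values was not tested.

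NID1, nidogen-1, which bridges laminin and type IV collagen, was at 0.56, 2.36, 0.61 and -0.36 at 8 months, a fitted difference of 0.79 (SE 0.47, limma adjusted p 0.336). At 11 months it was at 0.25, 0.06, -0.07 and 1.90, a fitted difference of 0.54 (SE 0.47, limma adjusted p 0.745). At each age 1 heifer stood far above the rest, heifer 2 at 8 months and heifer 4 at 11 months. COL15A1, a basement membrane collagen with heparan or chondroitin sulfate chains, was at 1.14, 2.76, -0.52 and -0.70 at 8 months and at 0.53, 1.15, -0.97 and 0.73 at 11 months. Its 8-month ratios were above 0 in the heifers with the 8-month RNA in Cy5 and below 0 in the others, and the fitted difference was 0.67 (SE 0.38, limma adjusted p 0.314). NID2 and COL18A1, the remaining linkers, had no kept probe: COL18A1 was above background in 2 heifers at 8 months, 2 at 11 months and 0 at 14 months.

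Heifer 2 at 8 months and heifer 4 at 11 months were therefore the low samples for LAMA1 and COL4A1 and the high samples for NID1. The same arrays carried the highest medians of the motile cilia list at their age, 3.75 and 3.27. The summed endothelial markers were also highest in these samples at each age, 3230 and 3150, though the medians of that list were -0.49 and 0.15. Whether cell content gave this pattern was not tested.

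Among the fibrillar collagens the chains of type I collagen did not move together. COL1A1 and COL1A2 encode the chains that join in one trimer. COL1A1 was at -0.63, -0.81, -0.51 and 0.01 at 8 months, a fitted difference of -0.48 (SE 0.20, limma adjusted p 0.18). COL1A2 was at 1.20, 0.58, 1.65 and -0.04, a fitted difference of 0.85 (SE 0.34, limma adjusted p 0.174). In heifers 1 to 3 the ratios were of opposite sign, and in heifer 4 both were near 0. At 11 months COL1A1 was at -0.17, -1.05, 0.41 and 0.45 and COL1A2 at -0.19, 0.04, 0.13 and 1.41, with fitted differences of -0.09 and 0.35. The difference between the chains was not tested, and each had a single kept probe.

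COL3A1, the fibrillar collagen of soft tissues, had a fitted difference of 0.05 at 8 months that hid large changes within heifers. Its ratios were 0.20, -1.85, 1.86 and 0.00 at 8 months and -0.48, -1.54, 0.25 and 1.73 at 11 months. Its level at 8 months was 12.23, 10.69, 13.42 and 10.69, and at 14 months 12.20, 12.74, 11.63 and 11.00. Heifer 2 was below and heifer 3 above its own 14-month level, and the 2 cancelled in the mean (SE 0.43, limma adjusted p 0.952). COL27A1, a fibrillar collagen best known from cartilage, was at 1.57, 1.55, 0.40 and -0.13 at 8 months, a fitted difference of 0.85 (SE 0.26, limma adjusted p 0.0965). COL27A1 was thus high in heifers 1 and 2 and near 0 in heifer 4. COL2A1, the cartilage collagen, was at -0.35 and COL11A2, which joins collagen fibrils in cartilage, at -0.21. The COL2A1 probe was above background in 1 heifer at 8 months, 2 at 11 months and 3 at 14 months. Both genes were kept through 14 months alone, so their lower 8-month values are no support for a difference.

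COL11A2 was the 1 member with every 11-month level below every 14-month level, against 1.53% of all probes. Its levels were 7.50, 6.65, 7.56 and 7.50 at 11 months and 7.74, 7.61, 7.77 and 7.70 at 14 months, a fitted difference of -0.27 (SE 0.22, limma adjusted p 0.719). On the arrays themselves its 11-month ratios were -0.25, -0.81, -0.15 and 0.11, so heifer 4 was above its own 14-month RNA and heifer 2 was the lowest. The probe was above background in 2 heifers at each younger age and was kept through 14 months alone, the age at which it was high, so this order supports nothing.

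The fibril-associated collagens bind to the surface of fibrils. Of these, COL21A1 was lower at both younger ages in most heifers: -0.44, -1.38, -0.39 and 0.25 at 8 months and -0.48, -1.53, -0.04 and -0.48 at 11 months. Its levels at 11 months were 11.44, 11.05, 12.26 and 11.92, against 11.85, 12.50, 11.96 and 12.16 at 14 months. These overlapped, with heifer 2 the lowest at 11 months and the highest at 14 months. The fitted differences were -0.49 (SE 0.23, limma adjusted p 0.232) at 8 months and -0.64 (SE 0.23, limma p 0.0241, adjusted p 0.661) at 11 months, and the 2 comparisons share the 14-month RNA. COL16A1 was the steadiest member at 11 months, at 0.25, 0.18, 0.23 and 0.29, a fitted difference of 0.24 (SE 0.15, limma adjusted p 0.674). Its probe was above background in 2 heifers at 8 months, 3 at 11 months and 1 at 14 months, and so was kept through the age at which it was high. COL12A1, COL19A1, COL22A1 and COL9A2 had fitted differences between -0.18 and 0.32 at 8 months and between -0.07 and 0.35 at 11 months. The value of 0.32 is that of COL12A1, which was kept through 8 months alone, so it is no support for a difference.

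The beaded filament collagens COL6A2 and COL6A3 were at -0.26 and -0.39 at 8 months and at -0.10 and 0.03 at 11 months. COL6A3 was above background in 1 heifer at 8 months, 2 at 11 months and 4 at 14 months. It was thus kept through 14 months alone, so its lower 8-month value is no support for a difference. Its ratios at 8 months were 0.44, -0.12, -0.50 and -1.37, so that heifer 4 was the lowest (SE 0.22, limma adjusted p 0.314).

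COL17A1, the transmembrane collagen of hemidesmosomes in stratified epithelia, was higher at 8 months in every heifer. Its ratios were 0.41, 0.54, 0.65 and 1.12, with a fitted difference of 0.68 (SE 0.20, limma adjusted p 0.0871), and it did not pass the threshold. Its levels were 7.59, 8.13, 7.46 and 8.21 at 8 months and 7.26, 7.53, 6.72 and 7.18 at 14 months, so they overlapped through heifer 2 at 14 months. The probe was above background in 3 heifers at 8 months and in 1 at each later age. It was thus kept through 8 months alone, the age at which it was high, so its p is no support for a difference. The squamous epithelium list had its medians of 3.43, 0.62, 1.67 and 3.18 in the same heifers, and its part in the COL17A1 ratio was not tested. COL7A1, the anchoring fibril collagen beneath such epithelia, was at 0.19, and COL13A1 and COL28A1 were at 0.05 and -0.15. COL8A1, a short-chain collagen of vessels and other tissues, was at -0.03, -0.91, 1.40 and 0.01 at 8 months and at -0.88, -1.03, -1.01 and 1.60 at 11 months.

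The matrix glycoproteins and small proteoglycans had a median standard deviation over heifers of 0.71 at 8 months and 1.01 at 11 months, beside 0.45 and 0.48 for all kept probes. FN1, fibronectin, which cells bind through integrins, was at -0.11, -1.53, -0.59 and 0.36 at 8 months and at -1.79, -2.32, 1.29 and 0.02 at 11 months. Its level at 11 months was 10.34 and 10.22 in heifers 1 and 2, against 12.08 and 12.34 at 14 months, and 12.00 in heifer 3, against 10.86. Heifers 1 and 2 were low and heifer 3 high, and the fitted difference at 11 months was -0.70 (SE 0.40, limma adjusted p 0.665). The Cy5 dye marked the younger age in the first pair of heifers. SPARC, a secreted protein that binds collagen, was at 0.15, -0.93, 0.68 and -0.51 at 8 months and at -0.90, -0.45, 0.16 and 0.92 at 11 months.

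FBN1, fibrillin-1 of the microfibrils, was higher at 8 months in all 4 heifers. Its ratios were 1.37, 0.46, 1.26 and 0.35, and its levels were 10.26, 7.70, 9.33 and 8.64 at 8 months and 8.80, 7.18, 7.95 and 8.12 at 14 months. The levels overlapped because the heifers themselves differed, and the fitted difference was 0.86 (SE 0.35, limma adjusted p 0.173). At 11 months FBN1 was at -0.51, 0.60, -0.92 and 0.88, a fitted difference of 0.01 (limma adjusted p 0.995). LOX, the enzyme that crosslinks collagen and elastin, was at 0.92, 0.55, 0.06 and -0.02 at 8 months, a fitted difference of 0.38 (SE 0.16, limma adjusted p 0.185). It was higher in heifers 1 and 2 and near 0 in the others.

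DCN and LUM, decorin and lumican, are small leucine-rich proteoglycans that bind collagen fibrils, and their genes are neighbours with 0 genes between them. DCN was at 0.73, -1.0, 2.26 and -1.07 at 8 months and at -0.60, 0.90, -0.04 and 1.68 at 11 months. LUM was at -0.44, -1.59, -0.54 and -0.91 at 8 months and at -1.28, 2.08, 1.62 and -0.96 at 11 months. LUM was below its 14-month level in every heifer at 8 months, with a fitted difference of -0.87 (SE 0.57, limma adjusted p 0.375), and was split between heifers at 11 months, while DCN was split at both ages, with fitted differences of 0.23 and 0.49. BGN, biglycan, had fitted differences of 0.08 and -0.11. POSTN, periostin, a secreted matrix protein of connective tissue, was at 0.85, -3.57, 0.09 and 0.29 at 8 months, a fitted difference of -0.59 (SE 0.56, limma adjusted p 0.553).

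The POSTN difference in heifer 2 came from both ages. Its level there was 7.22 at 8 months and 10.76 at 14 months, and the 14-month levels of the other heifers lay between 8.13 and 8.65. The stromal and muscle list had a median ratio of -1.15 on that array, against -0.02, 0.20 and 0.05 in heifers 1, 3 and 4, and the leukocyte list one of -1.74, against 0.04, 0.01 and -0.31. COL3A1, DCN, LUM, SPARC, FN1 and COL1A1 were also below 0 on this array, while COL1A2 (0.58), COL27A1 (1.55), FBN1 (0.46) and LOX (0.55) were above 0. COL12A1 (0.49) was above 0 too, but it was kept through 8 months alone, so its value is no support for a difference. The part of stromal or blood cell content in these values was not tested.

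**Figure D4:**
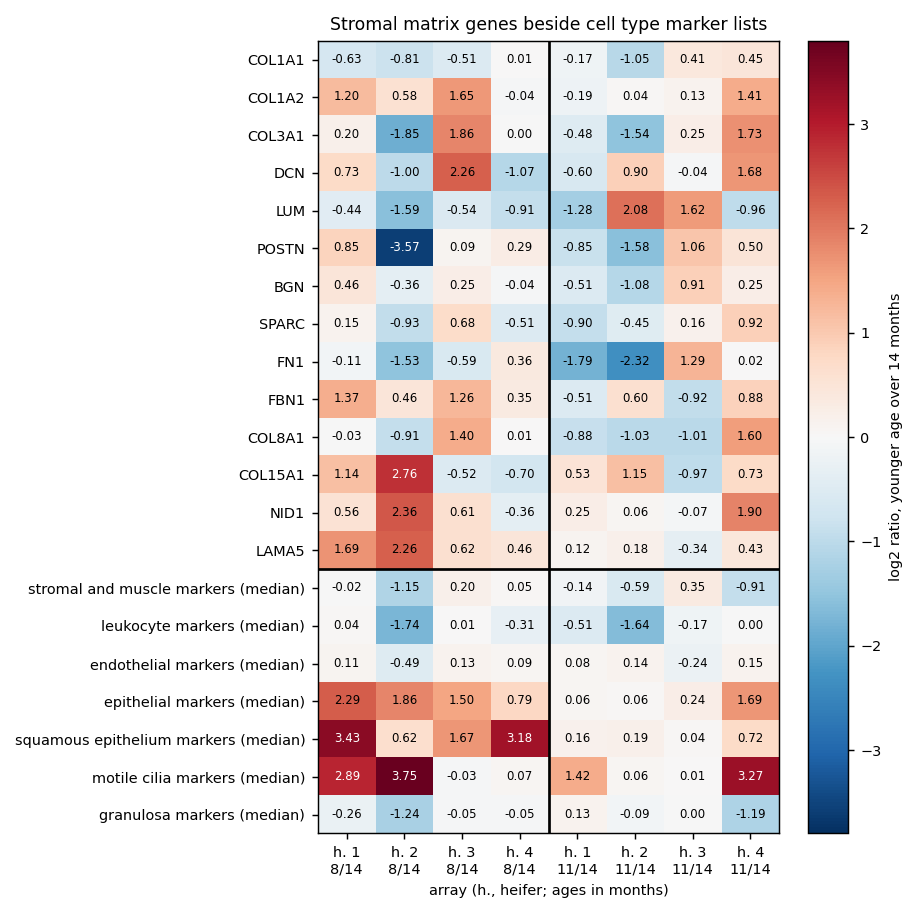
Each cell gives the log2 ratio of the younger age over 14 months, from blue (lower) to red (higher), for 14 matrix genes above the line and as the median of each marker list below it, in each of the 8 arrays (columns). Heifer 2 at 8 months has POSTN at -3.57 and NID1 at 2.36 with the stromal list at -1.15, the granulosa list at -1.24 and the motile cilia list at 3.75.

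COL4A3BP, the ceramide transfer gene, was at 0.68, 0.11, 0.40 and 0.74 at 8 months, a fitted difference of 0.48 (SE 0.18, limma adjusted p 0.138), and at 0.04 at 11 months.

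The ratios of many members differed widely between heifers. This spread holds any dye effect as well, since the dyes were swapped between heifers 1 and 2 and heifers 3 and 4, and the 8-month ratios of COL15A1 and COL28A1 were above 0 in the first pair and below 0 in the second. The standard deviation of the 8-month ratio over the heifers had a median of 0.57 for the kept members, and at 11 months it was 0.71, beside 0.45 and 0.48 for all kept probes. A standard deviation above 1 was found for 6 members (13%) at 8 months and 10 (21.7%) at 11 months, against 6.66% and 11.6% of all probes. The 14-month RNA of each heifer was read on 2 arrays, with a median absolute difference of 0.197 for the kept members and 0.22 for all kept probes. The standard deviation over heifers exceeded the largest of the 4 repeat differences for 27 of 46 members (58.7%) at 8 months and 29 (63%) at 11 months, against 45.4% and 50.4% of all probes. HSPG2 was one of the exceptions at 8 months, with a standard deviation of 0.81. The standard deviation of a ratio and a difference between repeated levels are unlike quantities, so these shares only describe the probes, and they were not tested.

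**Figure D5:**
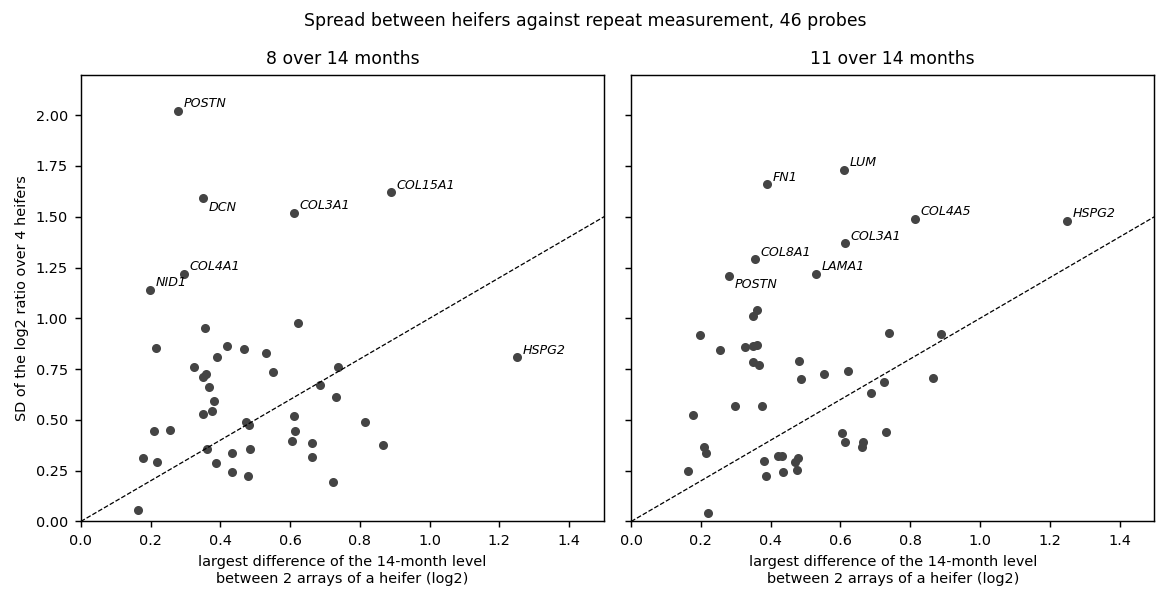
For each kept member probe, the standard deviation of its log2 ratio over the 4 heifers (vertical axis) is set against its largest difference between the repeated 14-month readings (horizontal axis), at 8 months and at 11 months, with a line of equality. Points above the line, 27 of 46 at 8 months and 29 at 11 months, have a standard deviation larger than that repeat difference. The standard deviation includes any dye effect, and the line marks equal numbers on unlike quantities.

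The ages of 8 and 11 months never met on an array, so their difference was taken through 14 months. None of the 46 members passed the threshold (0% of all kept probes did), and the smallest adjusted p among them was 0.753 in limma. An unadjusted p under 0.05 was reached by 2 members, LAMA5 at 1.16 and COL17A1 at 0.80, against 5.33% of all kept probes. COL17A1 was kept through 8 months alone, the age at which it was high, so its p is no support for a difference. The fitted differences ran from -1.24 for LUM to 1.16 for LAMA5, with 23 above 0 and 23 below it.

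Genes linked to these proteins were described beside them: the enzymes and chaperones that mature collagen, the receptors that bind matrix, and other matrix components. At 8 months 3 of their 63 kept probes rose and 0 fell, against 3.87% called among all kept probes. None of the 23 maturation probes passed, 1 of 20 receptor probes did, and 2 of 20 probes for other matrix components did. The median fitted difference was 0.04, 0.03 and 0.03 in these lists. At 11 months, and between 8 and 11 months, none of the 63 passed, nor did any other probe.

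The receptor gene called higher at 8 months was SDC1, syndecan-1, a heparan sulfate proteoglycan on the surface of epithelial cells. Its 8-month ratios were 3.30, 1.03, 0.51 and 1.65, and every 8-month ratio was above 0, with heifer 1 by far the highest. The fitted change was 1.62 (SE 0.35, n = 4 heifers, limma adjusted p 0.0419). NTN4, netrin-4, a secreted protein that binds laminin in basement membranes, was at 1.51, 2.52, 0.24 and 0.97, and it was higher by 1.31 in the fit (SE 0.28, limma adjusted p 0.0413). Its levels were 11.26, 11.34, 9.68 and 10.32 at 8 months and 10.07, 9.12, 9.55 and 9.40 at 14 months, overlapping through heifer 3 at 8 months. As for LAMA5, heifers 1 and 2 were the highest. EFEMP2, fibulin-4, which takes part in elastic fibre assembly, was at 1.56, 1.28, 2.08 and 0.63, and it was higher by 1.39 (SE 0.31, limma adjusted p 0.046). A further EFEMP2 probe did not reach the filter, with ratios of 0.53, -0.62, 0.10 and 0.46.

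These calls also depended on the setting. NTN4 passed in 10 of 14 alternative settings, with adjusted p up to 0.193. SDC1 passed in 9 of 13, with adjusted p up to 0.227, and EFEMP2 in 9 of 14, with adjusted p up to 0.204. None of the 3 passed with no dye term, without heifer 3 or without heifer 4. The fits without heifers 3 and 4 called only 0% and 0.159% of all kept probes, so those losses are not particular to these genes. NTN4 also failed without heifer 2 (limma adjusted p 0.0734), and SDC1 without heifer 1 (limma adjusted p 0.0662). EFEMP2 also failed without heifer 1 (limma adjusted p 0.0602) and with no filter on dim probes (limma adjusted p 0.0524). At 11 months NTN4 was above 0 in all 4 heifers, at 0.21, 1.08, 0.07 and 0.78, with a fitted difference of 0.54 (SE 0.28, limma adjusted p 0.663). SDC1 at 11 months was at 0.25, 0.67, -0.75 and -0.75, and EFEMP2 at 0.77, 0.95, -0.39 and 1.00.

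Of the 24 member probes that were not kept, 12 were never above background in any heifer at any age, among them those of COL10A1, COL11A1, COL24A1 and LAMC3. They carry no value here. Of the 46 kept, 23 stood above background in all heifers at every age, and 9 were kept through 1 age alone, 2 through 8 months, 3 through 11 months and 4 through 14 months.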

How the data were processed

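The deposited scanner tables give, per the file headers, median pixel intensity per spot and channel without normalization. The authors' deposited log2 ratios followed Cy5 over Cy3 of background-subtracted, loess-normalized medians (r from 0.999 to 1) and served as an alternative. The image software and the authors' normalization are not given in the sources used here. Medians were corrected with normexp (offset 50) and loess within arrays in limma 3.58.1 (R 4.3.3), with control spots given no weight. A probe was above background when it exceeded the mean of 153 negative control spots by 2 SD. Array medians lay between 220 and 329 intensity units, 43.2% to 57.3% of probes were above background, and no member spot was saturated. Precision is limited by the 4 heifers, over whom an exact sign permutation cannot give a two-sided p under 0.125.

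Log2 ratios were fitted over all 22675 kept probes with a term for each younger age, a dye term and the heifer as a random block (within-heifer correlation 0.159), with 5 residual degrees of freedom. Levels were taken after loess and Aquantile scaling. Same-numbered arrays come from one animal, per the labels. Within a heifer, the deviations of both arrays from their group means had correlations of 0.378, 0.275, 0.446 and -0.11 (heifers 1 to 4). The fit was tested on simulated data.

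Of all probes, 21790 had 1 gene symbol in the platform annotation and 22004 had none. All 59 member symbols matched the current gene table, 1 under a changed name. Members and lists were chosen with earlier results of these data known. Genes named were members past the threshold, the 5 member probes of smallest p in each direction against 14 months, a list of 22 common matrix genes, and linked genes past the threshold. Other members were named after their values were seen. Each gene is given by its brightest kept probe. Alternatives changed the background correction, normalization, filter, dye term, block, array weights, arrays used and heifers. No sequence or coordinate is given.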

Additional observations from a re-analysis of the deposited data

Results flagged for a closer look

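Each of the 46 kept member probes was checked in 2 comparisons for a heifer far from the other 3, which gave 92 groups of 4 ratios. In 7 of them 1 heifer lay farther out than Dixon's critical value at the 95% level allows, and chance gives this in about 5% of groups. Of these, 4 were at 11 months and 3 at 8 months. The check was run on member probes only, so no share over all kept probes stands beside this count. The genes below are therefore only described.

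POSTN, periostin, was at -3.57 in heifer 2 at 8 months, with the other heifers between 0.09 and 0.85. NID1, nidogen-1, was at 1.90 in heifer 4 at 11 months, with the others between -0.07 and 0.25. COL8A1 was at 1.60 in the same heifer at 11 months, with the others between -1.03 and -0.88.

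COL17A1, the hemidesmosome collagen, was at -0.90 in heifer 2 at 11 months, with the others between 0.09 and 0.22. For COL22A1 (probe EMBV3_36519) heifer 1 was at -0.19 at 11 months, and the others lay between 0.28 and 0.31. COL7A1 was at -0.32 in heifer 3 at 8 months, with the others between 0.29 and 0.42. A dimmer probe of LAMC1 (EMBV3_11677) was at 0.85 in that heifer at 8 months, with the others between -0.17 and -0.02, while the brightest LAMC1 probe was at 0.24 there.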

How the results depend on the processing

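LAMA5, NTN4, SDC1 and EFEMP2 kept their sign at 8 months in every alternative in which they were tested, but the counts of calls moved. Of the members, 1 passed at 8 months. The count was 2 with median centring (LAMA5 and COL27A1), against 7.57% of all kept probes. It was 3 with the arrays of that comparison alone (these and HSPG2), against 14.3%. With array weights it was 4 (LAMA5, HSPG2, LAMB2 and COL17A1), against 15.7%. COL17A1 was kept through 8 months alone, so its call is no support for a difference. The count was 0 with no dye term, against 2.67%. It was also 0 with probes above background on every array, a filter that leaves LAMA5 out, against 7.38% of 12402 probes. Leaving out 1 heifer gave 0 to 1, with 0 without heifer 3 or 4, LAMA5 without heifer 2, and POSTN in its place without heifer 1 (log2 change -1.57, limma adjusted p 0.0392). The POSTN ratios left in that fit were -3.57, 0.09 and 0.29 in heifers 2, 3 and 4, so the call rested on heifer 2. That heifer was then the only one with 8-month RNA in Cy5. The shares of all kept probes called without heifers 1, 2, 3 and 4 were 5.47%, 7.51%, 0% and 0.159%. The median member difference at 8 months was -0.168 with probes above background on every array and -0.06 to 0.13 with 1 heifer left out, so its sign was not stable. The filter also turned the member median at 11 months, from 0.04 to -0.04, and that between 8 and 11 months, from 0.01 to -0.158. With 1 heifer left out they ran from 0.04 to 0.12 and from -0.04 to 0.06.

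Of the linked genes, 3 passed at 8 months. Beside the shares of all kept probes given for the members, the count was 7 with median centring and 11 with the arrays of that comparison alone. It was 12 with array weights, 0 with no dye term and 0 to 7 with 1 heifer left out. Their median at 8 months, 0.0377, was -0.0356 with probes above background on every array and 0.0192 to 0.199 with 1 heifer left out, and that between 8 and 11 months went from 0.0344 to -0.00218 under that filter. Their median at 11 months, 0.035, was 0.0623 with median centring, -0.00554 with probes above background on every array, 0.0819 with array weights and 0.00186 to 0.127 with 1 heifer left out.

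Without the 4 arrays of high motile cilia signal, 7 members and 15 linked probes passed at 8 months, 3 and 11 at 11 months, and 2 and 4 between 8 and 11 months, and the linked median at 11 months was 0.00937. That fit has 1 residual degree of freedom and holds 8-month RNA in Cy3 only, and it called 16.2%, 12.1% and 2.21% of all kept probes in the 3 comparisons. In it 2 members rose at 8 months (COL4A2 and FBN1) and 5 fell (HSPG2, FN1, POSTN, COL4A5 and COL1A1).

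Over all kept probes 877 passed at 8 months (3.87%), against 1716 with median centring, 3233 with the arrays of that comparison alone and 3558 with array weights. There were 3677 without the cilia arrays, 605 with no dye term, and 1241, 1702, 0 and 36 without heifers 1, 2, 3 and 4. Of the 12402 probes above background on every array, 915 passed. Between 8 and 11 months array weights gave 1 call.

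Without the heifer as a block, which pairs the 2 arrays of an animal, the member count was 1 at 8 months, against 4.36% of all kept probes. It was 0 in the other comparisons. LAMA5 had a limma adjusted p of 0.0285, and no call among the members or linked genes changed.

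The cause of these shifts was not tested. Member probes near background, and 4 heifers, limit what these arrays can show.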
